A study of Mus musculus with 4 samples.

Results

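The enzymes that turn tryptophan into NAD+ were followed in single liver nuclei of mice with and without hepatocyte Nampt. The members were taken from a fixed list of pathway genes, and all 7 of them (Tdo2, Afmid, Kmo, Kynu, Haao, Acmsd and Qprt) were found among the 54464 gene rows of the count table. Nuclei came from livers of 3 WT and 3 HNKO mice, in which Nampt fl/fl is deleted by Cre under the albumin promoter (Alb-Cre+/-), so that recombination is directed to hepatocytes. The WT mice were littermates that carried the floxed allele without Cre, and therefore differ from HNKO mice in Cre as well as in Nampt. All mice were females of a C57BL6/BomTac line, 8 to 12 weeks of age at the start, and had been fed a purified control diet for 6 weeks. Nuclei of each mouse were stained with a hashtag antibody, 4250 nuclei per mouse were sorted, and the 6 mice were pooled for single-nucleus RNA-Seq (snRNA-Seq), in which each RNA molecule is counted by its unique molecular identifier (UMI). Mice are numbered 1 to 3 within a genotype by their hashtag names, and the numbers do not pair WT with HNKO mice.

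In the liver, the pathway opens with tryptophan dioxygenase (Tdo2), followed by arylformamidase (Afmid), which releases kynurenine. Kynurenine monooxygenase (Kmo) and kynureninase (Kynu) lead on to hydroxyanthranilate, which the dioxygenase Haao opens to an unstable semialdehyde. This intermediate is the branch point of the pathway, since it closes by itself to quinolinate unless the decarboxylase Acmsd diverts it to oxidation. Quinolinate is then taken into the NAD+ pool by Qprt, whereas Nampt, the gene deleted here, recycles nicotinamide into NAD+ by a separate route. Hepatocytes are the main site of this synthesis in the body, and within the liver lobule hepatocytes near the central vein (pericentral) and near the portal vein (periportal) carry out different metabolic tasks.

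The members lie on 6 chromosomes of GRCm38, and the GENCODE annotation gives all of them as protein coding. Tdo2 spans chromosome 3, positions 81957090 to 81976202 on the minus strand. Afmid spans chromosome 11, positions 117825924 to 117839908 on the plus strand. Kmo and Acmsd lie on the plus strand of chromosome 1, at positions 175620381 to 175662116 and 127729413 to 127767978. Kynu spans chromosome 2, positions 43555329 to 43682715 on the plus strand, and at 127387 bases it is the longest of the 7 genes. Haao spans chromosome 17, positions 83831156 to 83847963, and Qprt chromosome 7, positions 127107114 to 127122226, both on the minus strand.

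Promoter windows from 250 bases before to 50 bases after the RefSeq transcription start (GRCm38.p6) were matched for 6 members, namely Acmsd, Afmid, Haao, Kmo, Qprt and Tdo2. They were searched on both strands for 6 short motifs, the TATA box and sites of factors that act in liver promoters. Those shown are Tdo2, which opens the pathway, Haao, which precedes its branch point, and Afmid, which differed between lobule zones below. Capitals mark motif matches, and the windows are chr3:81975679-81975978 (minus strand), chr17:83846741-83847040 (minus strand) and chr11:117825669-117825968 (plus strand).
Tdo2: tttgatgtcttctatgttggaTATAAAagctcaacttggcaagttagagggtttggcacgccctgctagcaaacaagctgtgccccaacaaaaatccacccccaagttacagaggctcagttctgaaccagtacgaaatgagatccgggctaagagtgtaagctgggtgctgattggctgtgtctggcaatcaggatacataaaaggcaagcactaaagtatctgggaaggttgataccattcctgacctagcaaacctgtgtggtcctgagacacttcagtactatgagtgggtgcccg
Haao: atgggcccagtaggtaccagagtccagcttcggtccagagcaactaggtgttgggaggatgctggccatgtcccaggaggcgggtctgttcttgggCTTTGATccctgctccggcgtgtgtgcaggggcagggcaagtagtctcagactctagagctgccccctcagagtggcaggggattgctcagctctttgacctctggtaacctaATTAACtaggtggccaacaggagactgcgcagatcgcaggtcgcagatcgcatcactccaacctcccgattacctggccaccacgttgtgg
Afmid: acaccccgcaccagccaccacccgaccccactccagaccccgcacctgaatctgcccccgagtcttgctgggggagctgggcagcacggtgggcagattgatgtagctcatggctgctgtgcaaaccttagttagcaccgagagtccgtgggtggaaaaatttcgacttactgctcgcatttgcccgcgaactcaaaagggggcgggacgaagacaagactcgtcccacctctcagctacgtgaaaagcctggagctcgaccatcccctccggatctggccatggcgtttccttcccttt
The capitals in Tdo2 are the TATA box letters TATAAA, which begin 229 bases before the start and were present in 13.6% of the 32851 promoter windows. In Haao the capitals are the TCF/LEF letters CTTTGAT, 154 bases before the start and present in 3.73% of windows, and on the opposite strand the HNF1 letters GTTAAT, 41 bases before the start and present in 7.10%. No member window held the HNF4A letters CAAAGTCC (1.42% of windows), the C/EBP letters TTGCNNAA (10.8%) or the FOXA letters TGTTTAC (3.65%). These motifs did not overlap each other in the member windows, and the Afmid, Acmsd, Kmo and Qprt windows held none of them.

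The deposited table held 5193 nuclei, of which 4410 carried hepatocyte cluster names, and no barcode occurred in more than 1 mouse. Hepatocyte sums per mouse held between 3524050 and 6634850 UMIs, with median counts of 3572 to 4162 UMIs per nucleus in WT and 4800 to 5786 in HNKO mice. HNKO mouse 3 stood apart, since its own hashtag made up 45.5% of hashtag counts in the median nucleus against 65.2% to 78.0% in the other mice, and its TMM scaling factor was 1.28 against 0.917 to 1.01. All 8 hepatocyte markers were highest in the nuclei named hepatocytes. The counting included introns, with unspliced UMIs making up 77.4% to 80.6% of hepatocyte UMIs, so that levels reflect nuclear RNA and are compared between samples rather than between genes. For Afmid, 65.9% of UMIs came from values that had been split between genes, and in 1136 of the 1143 nuclei concerned the overlapping gene model Gm20708 was split too. Afmid was therefore also counted together with Gm20708. For the other members, split values held at most 2.04% of UMIs.

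To determine where the pathway was expressed, hepatocyte sums were compared with the sum of all other nuclei of the same mouse. All 7 members were higher in hepatocytes, by log2 differences of 1.71 to 2.71. The difference was 2.71 for Tdo2 (SE 0.18, FDR 7.6e-09), 2.52 for Acmsd (SE 0.30, FDR 4.3e-06) and 2.51 for Kmo (SE 0.23, FDR 2.8e-07), in the edgeR quasi-likelihood test with mouse as a block. It was 2.38 for Kynu (SE 0.18, FDR 2.9e-08), 2.22 for Haao (SE 0.17, FDR 4.3e-08), 2.13 for Qprt (SE 0.27, FDR 8.1e-06) and 1.71 for Afmid (SE 0.23, FDR 1.5e-05) in the same fit. In this comparison 29.2% of 10763 genes were higher in hepatocytes and 26.8% lower (56% in either direction), and the median log2 difference was 0.07 over all genes and 2.38 over the members. Scaling by library size alone shifted the median of all genes to -0.27 and the share of higher genes among those called from 52.1% to 35.7%, while all 7 members still passed. The cell type names rest on clusters that were made on all genes, the members included, so that the test is not independent of the naming. Of the 18 other tryptophan and NAD+ genes examined (transporters, side branches and last steps of NAD+ synthesis), 15 could be tested here. Among them 11 passed as higher in hepatocytes, and 3 as lower, namely the amino acid transporter genes Slc7a8, Slc3a2 and Slc36a4.

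The genotype effect was first examined for Nampt itself. Levels are given as CPM (UMIs per 1000000 UMIs of the sum), here after TMM scaling of the sums. In hepatocytes the Nampt levels of WT mice 1, 2 and 3 were 92.2, 109 and 104 CPM, while HNKO mice 1, 2 and 3 gave 92.3, 148 and 71.5. HNKO mouse 3 was the lowest on this scale, but without TMM scaling its value was 91.6 CPM, above 85.3 in WT mouse 1 and 84.6 in HNKO mouse 1. The count is a value for the whole gene and does not show which exons were present, so that it did not check the genotype labels.

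No member passed the threshold between genotypes in hepatocytes. The same held for all 11810 genes tested (0% called, edgeR quasi-likelihood test, FDR threshold 0.05), and 5.91% of them (698 genes) lay under 0.05 before adjustment. By DESeq2, 21 genes passed in the same sums, with no member among them. The smallest unadjusted p of a member was 0.074 for Qprt. For every member the values of WT and HNKO mice overlapped, whereas they did not overlap for 11.6% of all genes (6.42% higher and 5.17% lower in HNKO mice). The median log2 fold change was -0.07 over the members, of which 3 were positive, and 0.02 over all genes. The member values below are CPM after TMM scaling, in the order of mice 1, 2 and 3.

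For Tdo2, the entry enzyme, WT livers gave 1484, 1082 and 2246 CPM, whereas HNKO livers gave 1719, 1001 and 436. HNKO mouse 3 was by far the lowest of the 6 mice and HNKO mouse 2 lay below all WT mice, while HNKO mouse 1 lay between them. The log2 fold change was -0.61 (SE 0.50, edgeR FDR 0.84), and it was -1.16 without HNKO mouse 1 and -0.23 without HNKO mouse 3. For Afmid, which follows it, the WT values were 33.0, 50.2 and 48.3 CPM, and HNKO values were 24.5, 39.8 and 39.3 (log2 fold change -0.35, SE 0.26, edgeR FDR 0.84). Only HNKO mouse 1 lay below every WT mouse. Counted together with Gm20708, the level was 98.0 ± 18.9 in WT and 80.0 ± 19.3 in HNKO mice (SD, n = 3 each). With every nucleus thinned to 2000 UMIs, the log2 fold change of Afmid was 0.07.

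The kynurenine-consuming enzymes did not move together. Kmo amounted to 255, 219 and 296 CPM for WT against 246, 196 and 101 CPM for HNKO mice. HNKO mice 2 and 3 lay below all WT mice and HNKO mouse 1 did not (log2 fold change -0.51, SE 0.32, edgeR FDR 0.82), and leaving out HNKO mouse 3 gave -0.21. For Kynu, 1953, 1405 and 1509 CPM were counted in the WT group, compared with 2716, 1251 and 1098 CPM in the HNKO group. HNKO mouse 1 was thus the highest and the other HNKO mice were the lowest (log2 fold change 0.06, SE 0.39, edgeR FDR 0.98). Leaving out HNKO mouse 1 turned the value of Kynu to -0.47.

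At the branch point, Haao reached 161, 145 and 165 CPM under WT and 115, 153 and 180 CPM under HNKO genotype. The HNKO mice spanned the WT values on both sides (log2 fold change -0.07, SE 0.20, edgeR FDR 0.96), and with library size alone the sign turned to 0.14. Acmsd, which draws the intermediate away from NAD+, gave 21.9, 24.5 and 54.6 CPM for the WT animals compared with 98.4, 26.0 and 14.3 CPM for the HNKO animals. It had the widest spread, since HNKO mouse 1 was the highest and HNKO mouse 3 the lowest of all mice (log2 fold change 0.45, SE 0.68, edgeR FDR 0.91). Leaving out HNKO mouse 1 turned the value of Acmsd to -0.75. Qprt, the last enzyme, stood at 20.7, 27.1 and 27.9 CPM for WT, with HNKO values of 34.1, 27.0 and 46.3 CPM. HNKO mice 1 and 3 lay above all WT mice, and HNKO mouse 2 lay among them (log2 fold change 0.50, SE 0.24, edgeR FDR 0.82). The log2 fold change of Qprt was positive whichever mouse was left out, from 0.28 without HNKO mouse 3 to 0.67 without HNKO mouse 2, and was 0.71 with library size alone, a scaling that moved the median of all genes from 0.02 to 0.20.

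**Figure D1:**
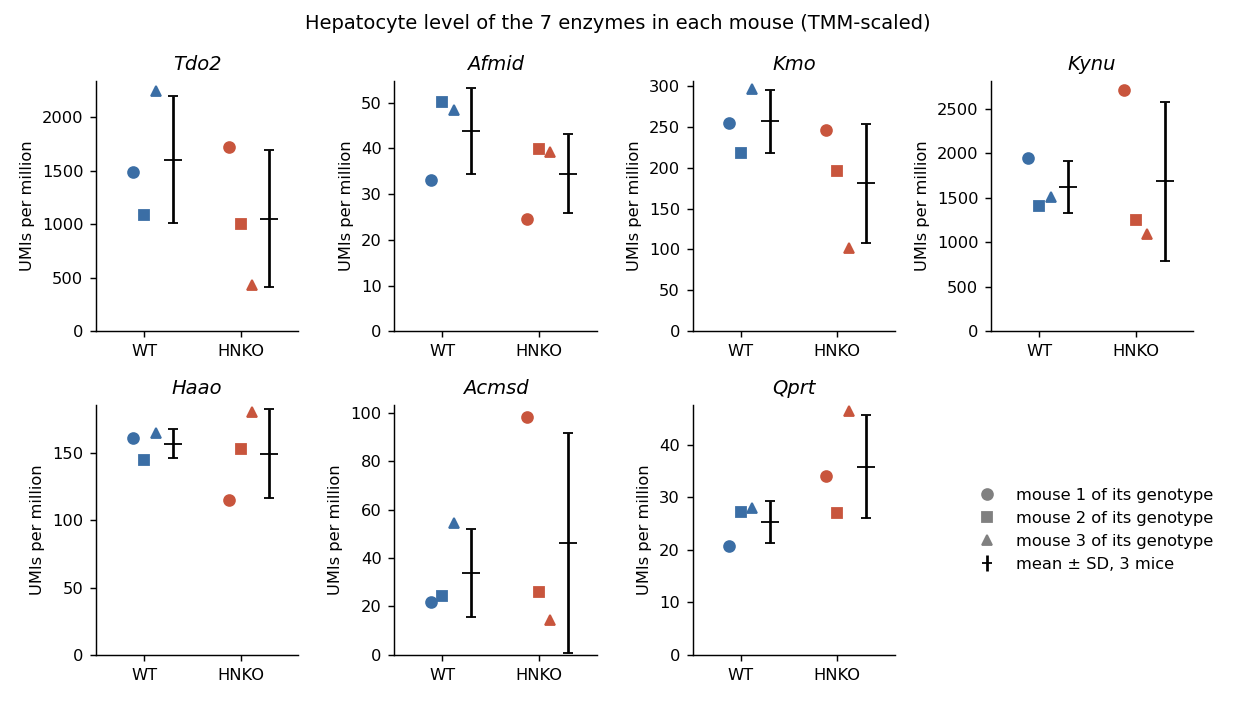
Hepatocyte levels of the 7 enzymes in CPM (vertical axes, each from 0) in WT (blue) and HNKO mice (red), with a symbol for each mouse and the mean ± SD of 3 mice in black. The genotypes overlap in every panel, and the spread of HNKO mice is wide for Tdo2, Kynu and Acmsd, where HNKO mouse 1 (circle) is above the other HNKO mice.

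Around the pathway, 15 of the 18 other tryptophan and NAD+ genes had enough counts in hepatocytes, and none passed the threshold between genotypes. Their log2 fold change was positive for 2 and negative for 13, with a median of -0.17 against 0.02 over all genes, of which 52.4% were positive. Under library size scaling, however, the values of Got2, Aldh8a1, Gcdh, Ido2, Nadsyn1, Nmnat3 and Slc36a4 turned positive. The most positive value belonged to Nmnat1, an adenylyltransferase of the last step to NAD+. Its WT values were 4.63, 6.31 and 6.49 CPM and its HNKO values 6.78, 7.99 and 12.6 CPM (log2 fold change 0.65, SE 0.31, edgeR FDR 0.82). The genotypes did not overlap for Nmnat1, as for 6.42% of all 11810 genes in this direction. The most negative value belonged to Slc7a5, a subunit of a transporter for large neutral amino acids, with WT values of 3.39, 1.58 and 6.73 CPM and HNKO values of 2.48, 3.66 and 0.573 CPM (log2 fold change -0.84, SE 0.68, edgeR FDR 0.84). The genotypes overlapped for Slc7a5.

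To compare zones of the lobule, hepatocyte nuclei of each mouse were ranked by a score of 11 pericentral minus 11 periportal genes, none of them a member, and the upper and lower 1/3 of nuclei were summed. Nuclei of the clusters named Central all fell into the pericentral sums, and 68.2% to 75.2% of nuclei of the clusters named Periportal fell into the periportal sums. Periportal nuclei were deeper, with median counts of 4273 to 6667 UMIs per nucleus against 3131.5 to 5029 in pericentral nuclei, and zone and depth moved together in all 6 mice.

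Of the 7 members, Kynu and Afmid passed the threshold between zones, in opposite directions. Kynu was lower in pericentral nuclei by a log2 difference of -0.61 (SE 0.06, edgeR FDR 3.5e-07, mouse as a block). In WT mice 1, 2 and 3, Kynu stood at 1336, 1003 and 1085 CPM in pericentral against 2395, 1573 and 1709 CPM in periportal nuclei. The same pairs were 2394, 1015 and 885 against 3447, 1448 and 1350 CPM for the HNKO group. Every mouse was lower in the pericentral sum, with ratios of 0.558 to 0.701, and the middle nuclei lay between both ends in 5 of 6 mice. Among 8561 genes tested, 8.56% were lower and 11.6% higher in pericentral nuclei (20.2% in either direction). With library size alone, the share of higher genes among those called fell from 57.6% to 40.1%.

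Afmid, which acts upstream of Kynu, was higher in pericentral nuclei by a log2 difference of 0.43 (SE 0.11, edgeR FDR 0.0077). The pericentral over periportal ratio was 1.54, 1.26 and 1.23 for the WT group and 1.31, 1.39 and 1.34 for the HNKO group, from 32 to 98 UMIs per sum. Without TMM scaling, the middle nuclei lay between both ends in only 3 mice. In WT mice 2 and 3 and HNKO mouse 1, Afmid was lower in the middle nuclei than at both ends. Together with Gm20708 the difference was 0.29 (edgeR FDR 0.015), and by DESeq2 it did not pass (FDR 0.082). Without the mouse block the FDR was 0.37 for Kynu and 0.42 for Afmid.

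Among the remaining members, Tdo2 was lower in pericentral nuclei of 5 of 6 mice (log2 difference -0.23, SE 0.08, edgeR FDR 0.061). It passed in nuclei thinned to 2000 UMIs (-0.31, FDR 0.0036), with library size alone (-0.31, FDR 0.0080), with 1/2 of the nuclei in place of the outer 1/3 (-0.20, FDR 0.041), and without WT mouse 2 (-0.31, FDR 0.016), the mouse in which the ratio was 1.11. Acmsd had a log2 difference of -0.35 (SE 0.14, edgeR FDR 0.088), and it passed in thinned nuclei (-0.65, FDR 0.048), with library size alone (-0.44, FDR 0.031) and without HNKO mouse 2 (-0.45, FDR 0.047). Qprt was lower in pericentral nuclei of all 6 mice without passing (log2 difference -0.27, SE 0.12, edgeR FDR 0.15), with ratios of 0.711 to 0.944. For Kmo (-0.09, SE 0.08, edgeR FDR 0.53) and Haao (0.13, SE 0.07, edgeR FDR 0.24) the mice were split in direction. The median over the members was -0.23, against -0.01 over all genes tested.

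Of the wider genes, 13 were tested between zones and 4 passed, where 20.2% of all 8561 genes tested passed in either direction. Slc16a10, a transporter of aromatic amino acids, was 2.54 to 6.43 times as high in pericentral as in periportal nuclei (log2 difference 2.06, SE 0.13, edgeR FDR 1.3e-09). Gcdh, which acts in the oxidation branch behind Acmsd, was higher in pericentral nuclei of all 6 mice (0.55, SE 0.10, edgeR FDR 7.0e-04). Ido2, another tryptophan dioxygenase gene, was lower in pericentral nuclei of 5 of 6 mice (-0.36, SE 0.10, edgeR FDR 0.017). Kyat3, which turns kynurenine into kynurenic acid, was lower in all 6 (-0.31, SE 0.08, edgeR FDR 0.011). Nampt was also lower in pericentral nuclei of all 6 mice (-0.54, SE 0.09, edgeR FDR 3.0e-04). Without the mouse block the calls of Gcdh (FDR 0.14), Ido2 (FDR 0.61), Kyat3 (FDR 0.69) and Nampt (FDR 0.20) were lost, and that of Slc16a10 was not (FDR 0.016). The Ido2 call was also lost in thinned nuclei (FDR 0.11) and without WT mouse 1, HNKO mouse 1 or HNKO mouse 2 (FDR 0.060 to 0.065).

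**Figure D2:**
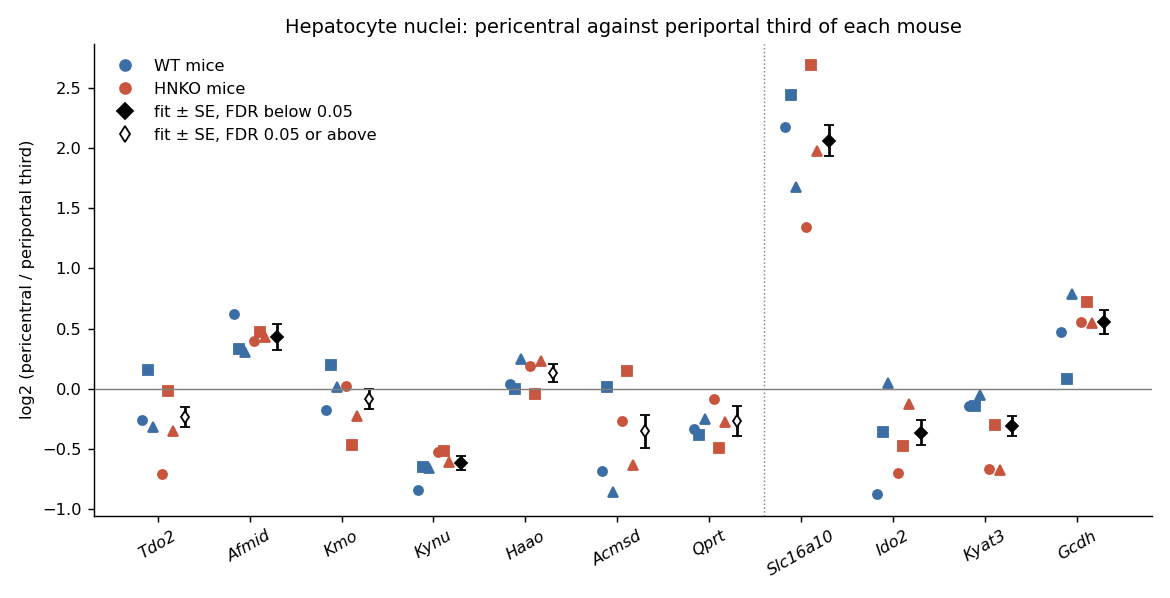
Log2 ratio of the pericentral to the periportal nuclei (vertical axis, 0 means equal) for the 7 members and, right of the dotted line, the 4 wider genes that passed. Symbols are mice (WT blue, HNKO red), and diamonds give the fitted difference ± SE, filled where the FDR is below 0.05. All 6 mice lie below 0 for Kynu and Qprt and above 0 for Afmid, Slc16a10 and Gcdh.

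To determine whether the zones differed between genotypes, the genotype by zone term was tested. No member passed (edgeR FDR 0.92 or above), and 1 of 8561 genes did (0.0117%), while 5.62% (481 genes) lay under 0.05 before adjustment. The term was 0.18 for Kynu (SE 0.11, edgeR FDR 0.92), on the log2 scale, and 0.06 for Afmid (SE 0.22, edgeR FDR 1.00). For Acmsd it was 0.36 (SE 0.28, edgeR FDR 0.95), and the remaining members lay between -0.21 and 0.06.

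Members were also counted in nuclei of other types, where UMIs of hepatocyte genes were found as well. As a measure of this, 8 hepatocyte genes (Alb, Apob, Ttr, Apoa1, Fgb, Ahsg, Trf and Cps1) were summed in the same nuclei and expressed as a percentage of their hepatocyte level in the same mouse. It is called the free RNA level below, but free RNA, doublets within 1 mouse and misnamed nuclei could not be told apart in it. This level was 16.0% to 35.6% in endothelial, 4.93% to 33.2% in stellate, 7.87% to 40.2% in Kupffer and 29.6% to 56.1% in CD45+ nuclei. In cholangiocytes of HNKO mice 1, 2 and 3 it was 12.8%, 7.20% and 26.3%. The mice were pooled, whereas this level refers to hepatocytes of the same mouse alone, and a level over all mice was not computed. In hepatocytes of HNKO mouse 3 the 8 genes held 66048 UMIs, against 89393 to 184230 in the other mice. The percentages of HNKO mouse 3 thus rest on a low base, and the ratios to this level below carry the same limit. The 8 genes differed among themselves, most of all in cholangiocytes, where single genes stood at 4.00% to 54.2% in HNKO mouse 1 and 12.7% to 89.8% in HNKO mouse 3. Markers of each type were highest in that type, except for 2 of the 5 CD45+ markers. Interval limits given below are exact 95% binomial intervals and cover counting error only.

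Tdo2 ranged from 554 to 2101 CPM in hepatocytes, here without TMM scaling. It ranged from 220 to 792 in CD45+, 218 to 444 in endothelial, 52.9 to 272 in stellate, 67.9 to 251 in Kupffer and 0 to 73.9 in cholangiocyte nuclei. In this order, the values of each pair of neighbouring types overlapped across mice. Within a mouse, hepatocytes were the highest in all cases. In endothelial nuclei 311 Tdo2 UMIs were counted, 0.951 times those that the free RNA level would give (interval 0.848 to 1.06). The ratio was 0.917 in stellate (0.746 to 1.12), 0.908 in CD45+ (0.805 to 1.02), 0.684 in Kupffer (0.482 to 0.943) and 0.335 in cholangiocyte nuclei (0.235 to 0.464). Tdo2 was thus at or below the free RNA level in each of these types.

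Kynu stood below the free RNA level in Kupffer nuclei (49 UMIs, 0.541 times, interval 0.401 to 0.716) and above it in cholangiocytes. In cholangiocytes the 3 HNKO mice gave 492, 148 and 628 CPM, from 128, 6 and 223 UMIs, and WT mice had 2 cholangiocyte nuclei with 2 Kynu UMIs in all. The total of 359 UMIs was 1.65 times that at the free RNA level (interval 1.49 to 1.83), and 70.0% of the 110 nuclei held a Kynu UMI at a median of 4525.5 UMIs per nucleus. Relative to the hepatocyte level of the mouse, Kynu stood at 19.9%, 11.8% and 45.1%, above the summed free RNA level in each HNKO mouse but below the highest of the 8 single genes in each. In stellate nuclei, where Kynu UMIs were at 1.01 times the free RNA level (0.869 to 1.17), the share of nuclei with a Kynu UMI was 26.9% at a median of 3378 UMIs. It was 60.5% in CD45+ nuclei at a median of 3021 UMIs, so a high share was not particular to cholangiocytes. Kynu was also set against Tdo2 within the same sums. Kynu made up 89.5% of Kynu plus Tdo2 UMIs in cholangiocytes of HNKO mouse 1 (83.3% to 94.0%) and 92.5% in HNKO mouse 3 (88.5% to 95.5%). In hepatocytes of the same mice it made up 61.2% (60.7% to 61.8%) and 71.5% (70.7% to 72.4%). The intervals did not overlap in either mouse. The part of free RNA in these shares was not tested, since single hepatocyte genes varied widely in the same nuclei. By cluster, the share was 91.8% (88.5% to 94.4%) in the cluster named Cholangiocyte 1 and 78.6% (59.0% to 91.7%) in Cholangiocyte 2, which had 22 Kynu UMIs. Qprt also exceeded the free RNA level in cholangiocytes, with 16 UMIs and a ratio of 2.42 (1.38 to 3.93), of which 13 came from HNKO mouse 3. It stayed below the highest of the 8 single genes in all 5 mice.

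In CD45+ nuclei, Kmo was at 35.7% to 85.5% and Haao at 50.7% to 151% of the hepatocyte level of the same mouse. In WT mice these values rest on few counts, 3 to 7 Kmo UMIs and 5 to 9 Haao UMIs per mouse. The 151% came from 9 UMIs in 16 nuclei of WT mouse 2. WT mouse 3, with 7 nuclei, lay under the minimum of 10 nuclei used for tests but is included in the counts of mice here. Kmo lay above the free RNA level in 5 of 6 mice (83 UMIs, 1.57 times that level, interval 1.25 to 1.95) and Haao in 6 of 6 (65 UMIs, 1.52 times, 1.18 to 1.94). Kmo also exceeded the highest of the 8 single genes in 4 of 6 mice and Haao in 3 of 6. This was not particular to them, since Acmsd did so in 4 of 6 mice and Afmid in 3 of 6. Acmsd had 13 UMIs there, at 1.02 times the free RNA level (0.545 to 1.75). Kynu stood at 1.25 times that level (1.15 to 1.35), above it in 4 of 6 mice, and above the highest single gene in 0 of 6. Within mice, Kmo made up a larger share of Kmo plus Tdo2 UMIs in CD45+ nuclei than in hepatocytes in 5 of 6 mice, but the intervals overlapped in 5 of 6 and were apart only in HNKO mouse 3 (21.1% to 47.5% against 17.6% to 20.1%). For Haao plus Tdo2 UMIs, the Haao share was larger in 6 of 6 mice, with overlapping intervals in 5. Summed over mice, in the cluster CD45+ 1, Kmo made up 31.1% of Kmo plus Tdo2 UMIs (24.1% to 38.8%), whereas in hepatocytes of single mice it made up 11.7% to 18.9%. In CD45+ 2 the share was 13.0% (7.92% to 19.8%) and in CD45+ 3 it was 20.9% (11.9% to 32.6%). Cholangiocyte 1 had a similar Kmo share to CD45+ 1, 28.6% (15.7% to 44.6%). Yet Kmo in cholangiocytes was at 0.595 times the free RNA level (0.307 to 1.04), so the share alone does not show a raised Kmo level. The Haao share in CD45+ 1 was 19.9%, within the 6.27% to 29.2% of hepatocytes of single mice. These clusters were named by the authors on all genes, and no test was made between them.

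**Figure D3:**
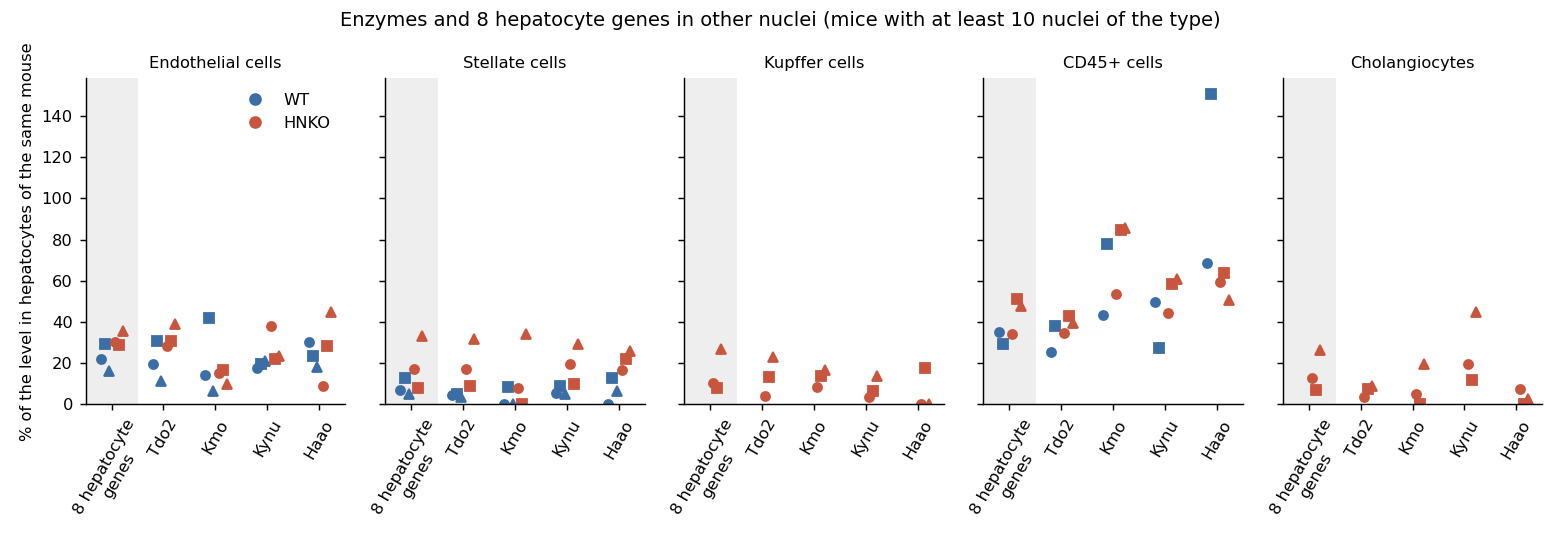
Level in other nuclei as a percentage of the hepatocyte level of the same mouse (vertical axis), in mice with at least 10 nuclei of the type. Shown are the 8 hepatocyte genes that give the free RNA level (shaded) and Tdo2, Kmo, Kynu and Haao. WT mice are blue, HNKO mice are red, and each symbol is a mouse. Kmo and Haao in CD45+ nuclei reach higher than the shaded column, while Tdo2 does not exceed it in cholangiocytes of HNKO mice 1 and 3.

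**Figure D4:**
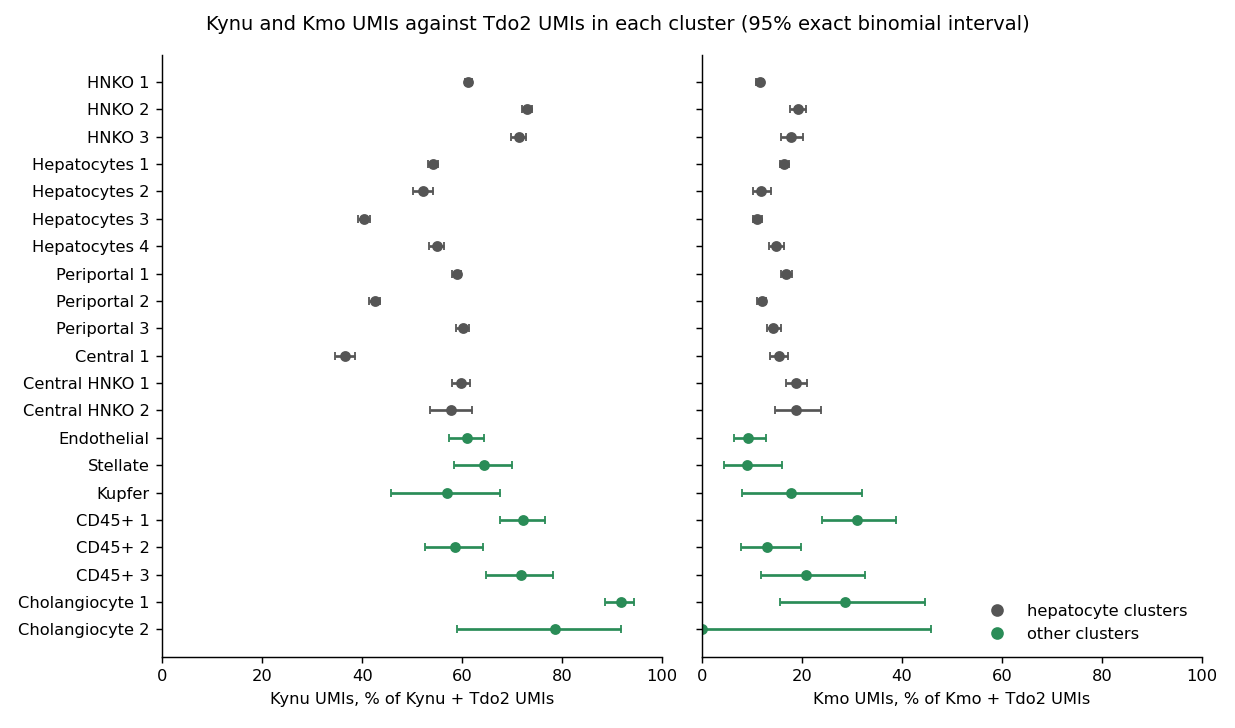
Kynu UMIs as a percentage of Kynu plus Tdo2 UMIs (left) and Kmo UMIs as a percentage of Kmo plus Tdo2 UMIs (right) in the 21 clusters, with exact 95% binomial intervals. Cholangiocyte 1 lies at 91.8% for Kynu, above all 13 hepatocyte clusters (grey). For Kmo, CD45+ 1 lies at 31.1% and Cholangiocyte 1 at 28.6%.

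The remaining members were near the limit of detection outside hepatocytes. Afmid had 44.9 UMIs in the 783 other nuclei, at 1.41 times the free RNA level (1.03 to 1.90), and the splitting of its UMIs with Gm20708 applies here as well. Acmsd had 29 UMIs (0.791 times, 0.529 to 1.14) and Qprt 33 UMIs (1.02 times, 0.699 to 1.43). In Kupffer nuclei no Acmsd UMI was seen in 6 mice, where 1.91 would be given by the free RNA level, so that a lower level was not detectable at this depth. In endothelial nuclei Kmo was below the free RNA level (32 UMIs, 0.589 times, 0.403 to 0.832).

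Between genotypes, Tdo2 and Kynu could be tested in endothelial and stellate nuclei and, in 2 WT and 3 HNKO mice, also Kmo and Haao in CD45+ nuclei. None passed, nor did any of 2743, 2266 and 2703 genes tested in these types (0% called in each by edgeR, while 104, 160 and 222 genes lay under 0.05 before adjustment, and DESeq2 called 1, 1 and 4). In stellate nuclei, the Kynu values without TMM scaling were 98.9, 124 and 69.9 CPM for WT mice against 491, 123 and 406 CPM for HNKO mice. HNKO mice 1 and 3 were above all WT mice (log2 fold change 1.82, SE 0.52, unadjusted p = 0.0044, edgeR FDR 0.61). Without HNKO mouse 2 it passed (2.19, FDR 0.026), as it did without the filter on low counts (1.89, FDR 0.020). Tdo2 moved in the same direction (1.40, SE 0.49, unadjusted p = 0.015, edgeR FDR 0.65). The free RNA level of these stellate sums was 6.88%, 12.9% and 4.93% for WT and 17.2%, 8.12% and 33.2% for HNKO mice, so that it was highest in the same HNKO mice. Its part in the stellate values was not tested.

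The authors' 13 hepatocyte clusters showed how the members varied among hepatocytes. Since 9 of these clusters took over 90% of their nuclei from a single mouse, the values describe mice as much as cell states, and no test was made. Acmsd varied most, by 9.77 times, from 9.25 CPM in Central HNKO 2 to 90.4 in HNKO 1, here without TMM scaling. The lowest value rests on 4 UMIs (interval 2.52 to 23.7 CPM), and against the next lowest cluster, Hepatocytes 2 at 16.9 CPM, the range was 5.33 times. Tdo2 varied by 4.45 times, from 531 in HNKO 2 to 2366 in Periportal 2, and Kynu by 3.60 times, from 716 in Central 1 to 2580 in HNKO 1. The clusters HNKO 2, HNKO 3 and Central HNKO 2, almost wholly from HNKO mouse 3, had 531 to 578 CPM of Tdo2, below the other clusters. The same clusters had 55.5 to 59.1 CPM of Qprt and 190 to 285 of Haao, above the other clusters on this unscaled measure. HNKO mouse 3 had a TMM factor of 1.28, the highest of the mice. Over all its hepatocytes Haao was 229 CPM without and 180 CPM with TMM scaling. Levels by cluster were not computed with this scaling, so the order of clusters may differ there. The clusters HNKO 1 and Central HNKO 1, almost wholly from HNKO mouse 1, had 90.4 and 89.1 of Acmsd. Kmo, Haao, Afmid and Qprt varied by 2.55 to 3.56 times.

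**Figure D5:**
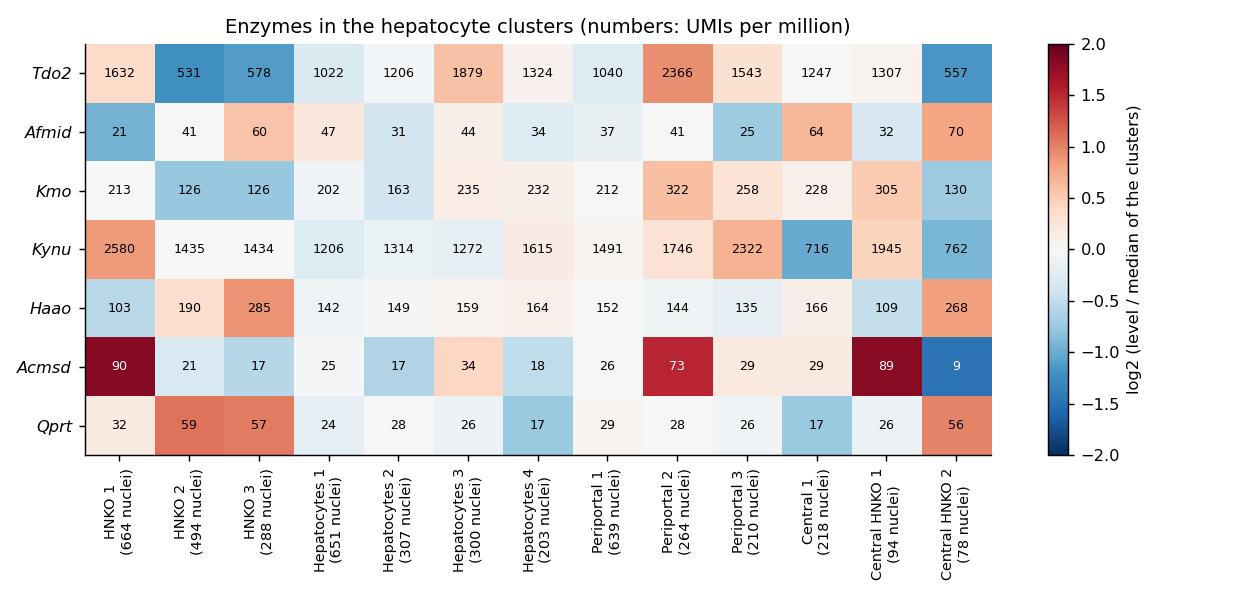
Level of each member in the authors' 13 hepatocyte clusters, written as CPM without TMM scaling and coloured by the log2 ratio to the median of the clusters. On this scale, clusters from HNKO mouse 3 (HNKO 2, HNKO 3 and Central HNKO 2) are low in Tdo2 and high in Haao and Qprt. Those from HNKO mouse 1 (HNKO 1 and Central HNKO 1) are high in Acmsd.

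Over these 13 clusters, Tdo2 varied with Kmo (Pearson's r = 0.89 of log2 values) and Acmsd (0.69) and in the opposite direction to Haao (-0.74) and Qprt (-0.72). Kynu and Afmid varied in opposite directions (-0.87). These values are descriptions, because the clusters share mice and differ in depth. Among 5328 genes with a mean of at least 20 CPM, the patterns most like that of Tdo2 belonged to Arhgef26 (0.95), an unnamed gene (0.94) and Csnk1g3 (0.94). For Afmid they included Rnf145 (0.97) and Gm20708 (0.95), which shares its UMIs. For Kmo they were Gucd1 (0.94), Fh1 (0.91) and Pde3b (0.91), and for Kynu Fam20a (0.91), Dlg1 (0.91) and Ptprk (0.89). For Haao they were Pipox (0.97), Nfix (0.97) and Galm (0.96). For Acmsd they were Arl15 (0.95), Gpt2 (0.93) and Dnajc1 (0.92), and for Qprt they were Chrna4 (0.95), Ldlrad3 (0.94) and 2810004N23Rik (0.94).

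Finally, the share of hepatocyte nuclei that held a UMI of a member was compared between genotypes. A Kynu UMI was found in 90.5 ± 2.98% of WT and 93.9 ± 1.78% of HNKO hepatocyte nuclei (SD, n = 3 each), and a Tdo2 UMI in 90.8 ± 5.03% and 84.7 ± 8.05%. Kmo and Haao were found in 50.3 ± 7.33% and 50.1 ± 4.62% of WT nuclei and in 52.0 ± 7.64% and 57.5 ± 9.10% of HNKO nuclei. Afmid was found in 29.6 ± 5.68% and 33.4 ± 6.72%, and Acmsd in 12.1 ± 6.24% and 15.3 ± 9.58% of WT and HNKO nuclei. Qprt was found in 12.9 ± 2.20% of WT and 22.0 ± 5.81% of HNKO nuclei, from 10.7% to 15.1% and from 17.5% to 28.6%, without overlap (exact permutation p = 0.1 two-sided, the smallest that 3 against 3 mice allow, and 0.58 after Benjamini-Hochberg adjustment over the 7 members). HNKO nuclei were deeper, and after each nucleus was thinned to 2000 UMIs the Qprt share was 5.07 ± 1.17% in WT and 7.06 ± 2.18% in HNKO mice, with overlap (exact permutation p = 0.3). For the other members the exact permutation p was 0.3 or above before and 0.2 or above after thinning. For comparison, stellate nuclei, with a median of 3378 UMIs, held a Qprt UMI in 1.17% and a Tdo2 UMI in 28.1% of cases, against 18.1% and 87.2% of hepatocyte nuclei at a median of 4484 UMIs.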

How the data were processed

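Per the labels and methods, the authors prepared 10x Genomics 3′ libraries of nuclear RNA (2 pools) and of hashtags (2 pools), made reads with Cell Ranger 5.0.1 and quantified them with Alevin on GRCm38. Alevin divides ambiguous UMIs between genes, so the deposited values are estimated counts (10.1% of the values above 0 were not whole, at a tolerance of 0.001). The mouse of each nucleus was taken from the authors' hashtag assignment in the deposited metadata, and the deposited hashtag counts gave the share of each nucleus's own hashtag. The SCTransform-corrected matrix was not used here. Doublets of different mice had been removed by the authors through the hashtags, and no doublet caller was run here.

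UMIs were summed per mouse and cell type or zone and rounded, because nuclei of a mouse are not replicates. Sums were tested with edgeR 4.0.16 in R 4.3.3 (filterByExpr, TMM, quasi-likelihood F test, two-sided), with genotype alone or with mouse as a block, and Benjamini-Hochberg adjustment over all genes tested (FDR threshold 0.05). The standard error was the log2 difference divided by the square root of F. A mouse entered with at least 10 nuclei of the type. Kupffer cells and cholangiocytes were not compared between genotypes, since fewer than 2 WT mice reached this number. For the zone score, log2(UMIs per 10000 + 1) of each gene was scaled to SD 1 within the mouse, and between 84 and 153 nuclei per mouse lay within 0.1 SD of a limit. The score genes were left out of the zone tests. Likeness used log2(CPM + 1) over clusters of at least 20 nuclei. The 3 genes most like each member were named, except 1 for Afmid that is not reported here. The fits were also run on simulated data with known changes. The spread there was set beforehand and not taken from these data, so those runs do not measure power here.

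Alternatives were DESeq2 1.42.0, RLE size factors, library size alone, no count filter, no mouse block, thinning to 2000 UMIs per nucleus, 1/2 of the nuclei in place of the outer 1/3, only nuclei with at least 60% of hashtag counts from their own hashtag, single zones, Afmid with Gm20708, and leaving out each mouse. Library size alone and Afmid with Gm20708 were added after the data were seen. Python 3.11.15 was used with numpy 2.4.6, scipy 1.17.1, pandas 2.3.3 and matplotlib 3.10.9. Named were the 7 members, and of the wider list the genes that passed a threshold by genotype or zone and the most positive and most negative by genotype. Slc7a8, Slc3a2, Slc36a4 and the genes that changed sign under library size were named after their values were seen. The members and lists were chosen with earlier results of these data known. The sums compared between genotypes came from separate mice that shared library pools, so genotype p-values measure the spread between mice. P-values of fits with mouse as a block measure how differences within a mouse varied across mice.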

Additional observations from a re-analysis of the deposited data

How the results depend on the processing

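No member passed between genotypes in hepatocytes under any of the alternatives run, and all 7 passed as higher in hepatocytes under each one. No paired analysis was possible because the labels number pools and not mice, and WT and HNKO mice share no number. Fits on each RNA pool alone were not run, since barcodes carry no pool name. Of 18 wider genes none was called by genotype under any alternative.

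Over all genes, the genotype count of 0 in hepatocytes became 21 with DESeq2 and 35 without a count filter, and ranged from 0 to 32 without a single mouse (32 without HNKO mouse 2). The zone count of 1727 became 1107 with DESeq2, 836 in thinned nuclei and 254 without the mouse block. The genotype by zone count of 1 ranged from 0 to 12 without a single mouse (12 without HNKO mouse 2, 2 without WT mouse 2 and 0 without WT mouse 1). Of the members, 2 passed between zones, against 1 with DESeq2, 4 with library size alone, 4 in thinned nuclei, 0 without the mouse block, and 2 to 3 without a single mouse. In stellate nuclei the count of members called by genotype was 0, but 1 without a count filter and 0 to 1 without a single mouse, the call being Kynu. The causes were not tested.

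Signs turned by genotype for Afmid in thinned nuclei (0.0655), Haao with library size alone (0.14) and in the pericentral nuclei alone (0.0277), and Nampt in thinned (-0.10) and pericentral nuclei (-0.008). Without a single mouse, the log2 fold change ranged from -0.47 to 0.30 for Kynu, -0.22 to 0.0885 for Haao, -0.75 to 0.99 for Acmsd and -0.31 to 0.25 for Nampt. The genotype by zone term of Haao was -0.0458 with 1/2 of the nuclei per zone, and without a single mouse the term ranged from -0.0162 to 0.15 for Afmid, -0.0211 to 0.13 for Haao and -0.0216 to 0.15 for Qprt. The difference in the share of nuclei with a Kmo UMI turned from 1.62 to -5.36 percentage points after thinning. Acmsd, Qprt and Afmid had 977 to 1242 UMIs in all hepatocytes, which limits what could be detected for them.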
